A study of Homo sapiens with 6 samples.

Results

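The genes described here lie on the long arm of chromosome 8 in a stretch where most RNAs were lower in cells labelled as lacking the histone methyltransferase MLL4. The members are the rows of the deposited count table whose gene lies wholly between positions 70573442 and 113437099 of chromosome 8 (GRCh38) and has at least 60 counts over all 6 libraries, leaving out LRP12, PKIA, ESRP1, GRHL2, TP53INP1, RRM2B and CCNE2. Of 616 rows inside these bounds 123 reached 60 counts, and without the 7 named exceptions 116 genes remained, out of 59715 rows and 14543 tested genes in all. They comprise 99 protein-coding genes and 17 noncoding RNAs or pseudogenes. The bounds were chosen by the RNA levels of these 6 libraries, MLL4KO against MLL4WT, so the differences between genotypes are given as a description and carry no test of their own.

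Genes that sit next to each other share the DNA copies of their chromosome and, over shorter distances, its chromatin, and their RNA levels can therefore move as a block while single genes keep their own control by promoters and enhancers. The name MLL4 has been used for both KMT2D and KMT2B, and the labels do not say which was targeted. KMT2D is known for placing monomethyl marks on histone H3 lysine 4 at enhancers. DNA copy number and chromatin were not analysed here, and the part of either in these values was not tested.

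The libraries were poly(A)-selected RNA of HCT116, an established human colorectal carcinoma line, grown in DMEM with serum. By the labels 3 libraries are of wild-type cells (MLL4WT) and 3 of MLL4 knockout cells (MLL4KO), with no treatment named for either. The labels do not say how the knockout was made, whether it is a single clone, or whether replicates are separate cultures, so that p-values measure only the spread between these libraries, which may be technical.

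Library totals ranged from 6829400 to 19736751 counts. A field of the column names is called the run code here, though neither the labels nor the column names say what it stands for. MLL4WT replicate 1 was the shallowest library and the only one with its run code. Members whose values turn on this library are also given without it. KMT2D RNA stood between 230 and 239 CPM (counts scaled to a common library size by TMM) in MLL4WT and between 224 and 243 CPM in MLL4KO. Since reads are summed over the gene, an edit of a few bases could leave this level unchanged, and the labels are not checked by it. KMT2B was at 90.4 ± 3.44 CPM in MLL4WT against 63.1 ± 3.44 CPM in MLL4KO (SD, n = 3). The log2 fold change was -0.51 ± 0.06 (SE) for KMT2B and -0.01 ± 0.05 for KMT2D. At an adjusted p under 0.05 by the edgeR quasi-likelihood test, KMT2B was lower, as were 21.6% of all tested genes, and KMT2D was not. Whether the KMT2B level bears on which gene was targeted was not tested. Of 6 colon epithelial markers, EPCAM, CDH1, KRT8, KRT18 and CDX2 were at 10.1 CPM or more in every library, while VIL1 did not exceed 1.17 CPM (per library total, as for all markers). Of these, EPCAM (278 to 292 against 200 to 213 CPM), KRT8 and KRT18 were lower in every MLL4KO library than in every MLL4WT library, and the part of this in the members' values was not tested. Of 8 markers of blood, endothelial, fibroblast and liver cells, COL1A1 was at 21.2 to 22.6 CPM in MLL4WT and 25.6 to 29.4 CPM in MLL4KO, higher in every MLL4KO library, and its part in the members' values was not tested. The other 7 did not exceed 5.55 CPM.

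The members shared a shift to lower RNA in MLL4KO. The median log2 fold change of the 116 members was -0.50, a level 71.0% of that in MLL4WT, beside -0.002 for the 14427 other tested genes. Of the members 102 had a log2 fold change below 0 and 14 above it. By the edgeR quasi-likelihood test, 76 members (65.5%) were called lower at an adjusted p under 0.05, where 21.6% of all tested genes were, and 5 (4.31%) were called higher, where 19.8% of all tested genes were. In 83 members every MLL4KO library lay below every MLL4WT library (26.6% of all tested genes), in 8 every one lay above (25.9% of all tested genes), and 25 overlapped. In bulk libraries a lower level in every cell and fewer cells with the RNA cannot be told apart.

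The shift was of like size in each MLL4KO library. Over the 86 members at 10 CPM or more in MLL4WT, the median log2 ratio to the MLL4WT mean was -0.52, -0.50 and -0.48 in MLL4KO replicates 1, 2 and 3. In MLL4WT replicates 1, 2 and 3 it was -0.05, 0.02 and 0.03. The groups did not overlap. The members held 1.23% to 1.28% of all counts in the MLL4WT libraries, against 0.904% to 0.929% in the MLL4KO libraries. Between libraries with the same run code, the median over all members was -0.50 for MLL4WT replicate 2 against MLL4KO replicates 2 and 3, with 102 members lower, and -0.51 for MLL4WT replicate 3 against MLL4KO replicate 1, with 101 lower. Without MLL4WT replicate 1 the median fold change was -0.49.

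**Figure D1:**
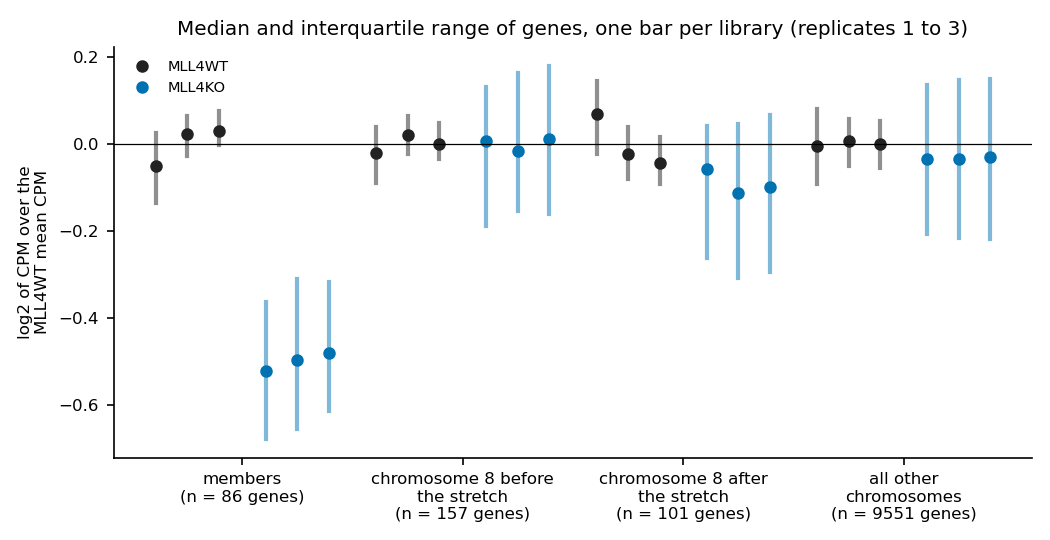
Median (point) and interquartile range over genes (bar) of the log2 ratio of CPM to the MLL4WT mean, for each of the 3 MLL4WT and 3 MLL4KO libraries, in 4 sets of genes at 10 CPM or more in MLL4WT. The MLL4KO medians of the members lie between -0.52 and -0.48, while those of the other 3 sets lie between -0.11 and 0.01.

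The bounds were placed by these same RNA levels, so that the lower level stops at both ends follows from that choice. The genes at the ends are only described. NCOA2, a nuclear receptor coactivator gene whose end lies 169 kb before the first member, was at 43.6 ± 2.17 CPM in MLL4WT against 40.2 ± 1.92 CPM in MLL4KO (log2 -0.12 ± 0.07). TRAM1, the first member, encodes a protein of the secretory translocon. It was at 219, 214 and 221 CPM in MLL4WT replicates 1 to 3 against 167, 177 and 178 CPM in MLL4KO (log2 -0.33 ± 0.05, SE). LACTB2, next to it, had a log2 fold change of -0.41 ± 0.08. At the far end SYBU, a gene for a protein that links cargo to kinesin motors, was at 27.7 ± 2.07 and 17.9 ± 1.42 CPM (log2 -0.61 ± 0.09). Between its end and EIF3H, the next tested gene outside the stretch, lie 6950 kb in which CSMD3 is the only tested gene. EIF3H, a translation initiation factor gene, was at 375 ± 10.8 CPM in MLL4WT against 379 ± 5.18 CPM in MLL4KO (log2 0.01 ± 0.04). The far end is thus placed no more closely than that gap.

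On the rest of chromosome 8, the 215 tested genes before the stretch had a median log2 fold change of 0.001, with 48 called lower and 51 called higher. The 147 after it had a median of -0.04, with 39 lower and 23 higher. Of all tested genes 21.6% were called lower and 19.8% higher. For the 101 genes after the stretch at 10 CPM or more, median log2 ratios to the MLL4WT mean were -0.113 to -0.059 in MLL4KO libraries. In MLL4WT libraries they were -0.045 to 0.067. The MLL4KO medians on all other chromosomes were -0.035 to -0.032. Whether genes after the stretch share a small part of the shift was not tested. Within the stretch, medians over bins of 5 Mb, each of 8 to 21 members, ran from -0.27 to -0.64 along the first 40 Mb, and CSMD3 is alone in the last 2.86 Mb. The bin from 20 to 25 Mb had the least shift (-0.27, 19 members) and that from 30 to 35 Mb the most (-0.64, 19 members). Each bin of more than 1 member held log2 values from -0.73 or lower up to -0.12 or higher. Medians over several genes vary less than single genes in any case, so these ranges are not compared with those of the bins. At the limit of 60 counts, ZNNT1 (63 counts) and SBSPON (65) just passed, with 35 and 36 counts in MLL4WT and 28 and 29 in MLL4KO. STMN2 (55) and GAPDHP62 (54) just missed it, with 20 and 28 in MLL4WT and 35 and 26 in MLL4KO.

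**Figure D2:**
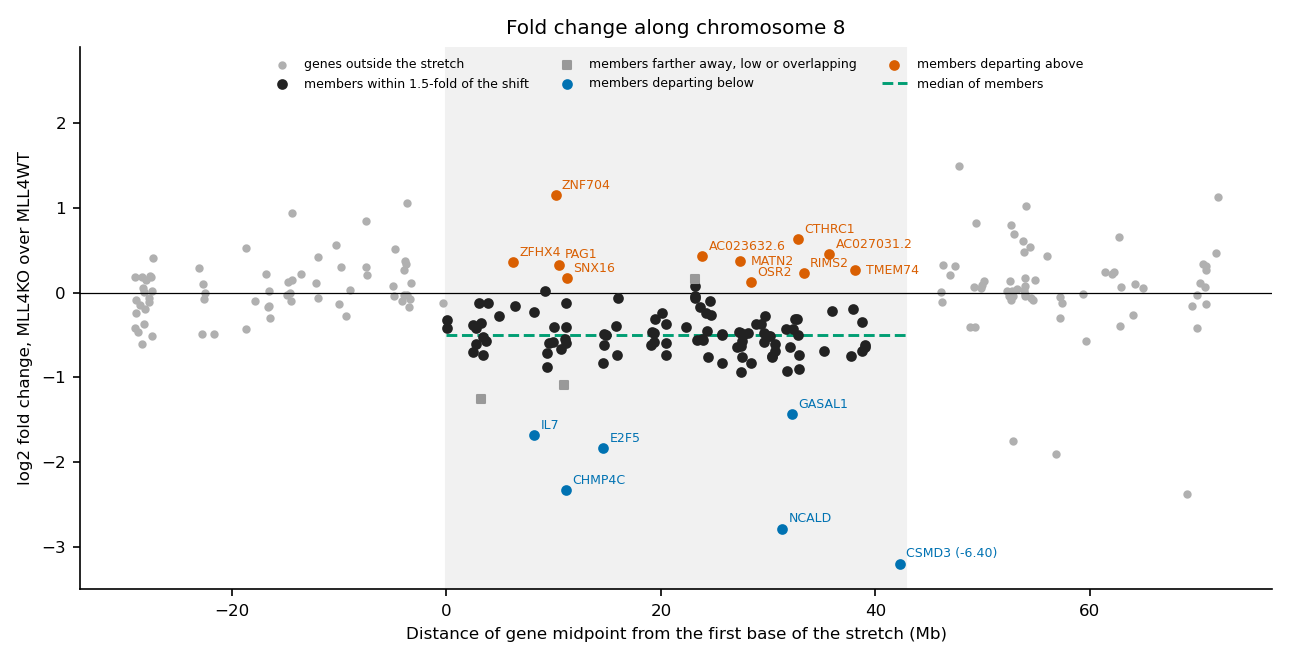
Log2 fold change (MLL4KO over MLL4WT) of tested genes in the stretch and its flanks against the distance of the midpoint from the first base of the stretch in Mb, with the stretch shaded and the 7 named exceptions not drawn. Members cluster around the dashed median of -0.50, genes outside spread around 0, and CSMD3 is drawn at the lower edge with its value of -6.40 in brackets.

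A band of 1.5-fold to either side of the median (log2 from -1.08 to 0.09) was used to tell the shared shift from departures. It held 96 of 116 members (82.8%), of which 70 were called lower and 26 were not called, where 21.6% of all tested genes were called lower. None were called higher, for which a band ending at log2 0.09 leaves little room. Those 70 had log2 values between -0.93 and -0.22. Among the members at 10 CPM or more, the middle 50% spanned 0.29 log2 units, from -0.64 to -0.35, beside 0.34 units in the 9813 other genes at that level. Below 10 CPM the 30 remaining members spread over 0.97 units, with a median standard error of 0.25 against 0.07 at the higher level. At 10 CPM or more 70 of 86 members were called lower and 2 higher, where 27.6% and 19.7% of all tested genes at that level were.

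The 12 members of highest CPM within the band were all called lower, with log2 fold changes from -0.76 for YWHAZ to -0.33 for TRAM1. Per kb of merged exons PABPC1, RPL7 and YWHAZ had the highest MLL4WT levels, 622, 398 and 188 CPM per kb. PABPC1, the cytoplasmic poly(A)-binding protein gene, was at 3006, 2964 and 2894 CPM in MLL4WT against 2057, 2060 and 2109 CPM in MLL4KO, a log2 fold change of -0.51 ± 0.04. Every MLL4KO library lay below every MLL4WT library. YWHAZ, which encodes a 14-3-3 adaptor protein, went further, from 1587, 1629 and 1598 CPM to 937, 949 and 965 CPM (log2 -0.76 ± 0.04). LAPTM4B, a lysosomal membrane protein gene, was at 456 ± 21.3 and 330.1 ± 6.93 CPM (log2 -0.47 ± 0.05). MTDH, the metadherin gene, was at 409 ± 13.4 and 263 ± 9.01 CPM (log2 -0.64 ± 0.05). AZIN1, the antizyme inhibitor gene of polyamine control, had a log2 fold change of -0.43 ± 0.05, and PTDSS1, a phosphatidylserine synthase gene, of -0.50 ± 0.04. PABPC1, RPL7, RPL30 and YWHAZ have pseudogene copies elsewhere in the genome, and how the authors' counting shared reads with them is not known.

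The 12 gene lists below were drawn up from general knowledge with earlier results of these data known. Their medians are read beside -0.50 for all members and -0.004 for all tested genes. Counts called are read beside 65.5% of members called lower and 4.31% higher, and 21.6% and 19.8% of all tested genes. At 10 CPM or more 70 of 86 members were called lower, so a high count in a list is not read as a trait of its function. All 7 members that act in translation were called lower, at a median log2 of -0.57. The large-subunit ribosomal protein gene RPL30 was at 524, 534 and 543 CPM in MLL4WT against 387, 378 and 387 CPM in MLL4KO (log2 -0.48 ± 0.04). RPL7, of the same subunit, was at 973, 1242 and 1259 CPM in MLL4WT, with replicate 1 below the other MLL4WT libraries, and at 860, 872 and 874 CPM in MLL4KO (log2 -0.42 ± 0.09, or -0.52 without MLL4WT replicate 1). EIF3E, a subunit of initiation factor eIF3, was at 343 ± 32.4 and 206 ± 1.86 CPM (log2 -0.74 ± 0.06). DCAF13, which also serves ribosome assembly, was at 185 ± 13.4 and 111 ± 3.16 CPM (log2 -0.74 ± 0.06).

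Genes for mitochondrial proteins were called lower in 12 of 13 members, none higher, at a median of -0.56, where 65.5% of all members were called lower. PDP1, the phosphatase that activates pyruvate dehydrogenase, was at 365, 379 and 382 CPM in MLL4WT against 249, 254 and 261 CPM in MLL4KO (log2 -0.56 ± 0.04). SLC25A32, an inner-membrane carrier gene, was lower than most, at 128, 117 and 116 CPM against 63.8, 61.8 and 67.0 CPM (log2 -0.90 ± 0.06). COX6C, a cytochrome c oxidase subunit gene, lay nearer the zero line, at 85.4 ± 3.80 and 66.6 ± 2.96 CPM (log2 -0.37 ± 0.06). The complex III subunit gene UQCRB was at 106, 156 and 153 CPM in MLL4WT against 99.6, 101 and 99.2 CPM in MLL4KO. MLL4WT replicate 1 was close to the MLL4KO values, and without it the log2 fold change moved from -0.49 to -0.62. The call of UQCRB was lost when any of the other 5 libraries was left out. The member not called was GDAP1, a gene for a mitochondrial outer-membrane protein, at 17.1, 24.3 and 21.5 CPM in MLL4WT against 19.3, 19.4 and 20.5 CPM in MLL4KO. Its groups overlapped through MLL4WT replicate 1, and the log2 fold change went from -0.12 to -0.20 without that library.

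The ubiquitin system had 7 members, all called lower, at a median of -0.40. ELOC, the elongin C gene shared by cullin ligases and transcription elongation, was at 96.5 ± 11.1 and 67.6 ± 0.923 CPM (log2 -0.53 ± 0.07). WWP1, a HECT-type ubiquitin ligase gene, was at 58.0, 68.1 and 64.9 CPM in MLL4WT against 50.0, 50.3 and 46.1 CPM in MLL4KO (log2 -0.40 ± 0.07), and the groups did not overlap.

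Of 7 members in RNA synthesis and processing 4 were called lower and none higher, at a median of -0.45. INTS8, of the Integrator complex, was at 112 ± 3.45 and 81.8 ± 5.22 CPM (log2 -0.45 ± 0.06). VIRMA, of the complex that methylates adenosine in mRNA, was at 99.5 ± 1.78 and 67.4 ± 1.47 CPM (log2 -0.57 ± 0.05). ENY2, a subunit of the SAGA and TREX-2 complexes, was at 77.2, 111 and 111 CPM in MLL4WT against 80.9, 79.0 and 79.7 CPM in MLL4KO. Its groups overlapped through MLL4WT replicate 1. It was not called (log2 -0.35 ± 0.12), but was called lower without that library (log2 -0.47), without a filter, with the run code as a term, and with limma-voom or DESeq2. STAU2 (log2 -0.12 ± 0.07, or -0.17 without MLL4WT replicate 1) and RBM12B (log2 0.08 ± 0.06), both RNA-binding protein genes, were not called either.

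Members in DNA repair, telomere upkeep and growth control were called lower in 8 of 8, at a median of -0.61. NBN, of the MRE11 complex that senses DNA breaks, was at 73.8, 76.2 and 79.4 CPM in MLL4WT against 49.0, 51.2 and 53.5 CPM in MLL4KO (log2 -0.59 ± 0.06). The telomere-binding gene TERF1 had a log2 fold change of -0.38 ± 0.06, and the recombination gene RAD54B of -0.54 ± 0.08. STK3, a Hippo pathway kinase gene, had -0.47 ± 0.08.

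Lipid, retinoid and inositol metabolism had 5 members, all called lower, at a median of -0.55. FABP5, a fatty acid-binding protein gene, was at 191, 272 and 263 CPM in MLL4WT against 148, 153 and 159 CPM in MLL4KO (log2 -0.67 ± 0.13, or -0.79 without MLL4WT replicate 1). IMPA1, the inositol monophosphatase gene, was at 98.8 ± 11.1 and 68.1 ± 1.16 CPM (log2 -0.55 ± 0.07), and RDH10, a retinol dehydrogenase gene, at 41.9 ± 1.17 and 27.5 ± 0.233 CPM (log2 -0.61 ± 0.06). Both measured carbonic anhydrase genes, CA2 and CA13, were called lower with nearly the median shift. CA2 was at 81.3, 92.7 and 86.8 CPM against 62.0, 62.8 and 60.8 CPM (log2 -0.50 ± 0.06), and CA13 had a log2 fold change of -0.49 ± 0.09.

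Trafficking and lysosomal genes varied more. Of 14 members 8 were called lower, 1 higher and 5 not, at a median of -0.32. TPD52, a vesicle trafficking gene, was at 195, 196 and 196 CPM in MLL4WT against 128, 127 and 132 CPM in MLL4KO (log2 -0.60 ± 0.04). ATP6V1C1, of the proton pump of lysosomes, was at 63.0 ± 3.73 and 51.0 ± 2.13 CPM (log2 -0.31 ± 0.06). Of 4 cilium genes only SPAG1, which acts in dynein assembly, was called lower (log2 -0.58 ± 0.13), and the list median was -0.17. CFAP418 (log2 -0.27 ± 0.11), CIBAR1 and TMEM67 were not called.

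Transcription regulators had members called in both directions. Of 10 members 5 were called lower, 2 higher and 3 not, at a median of -0.43. KLF10, a zinc finger factor gene induced by TGF-beta, was at 75.5, 75.3 and 76.9 CPM in MLL4WT against 48.6, 50.0 and 47.9 CPM in MLL4KO (log2 -0.64 ± 0.05). ZNF706 had a log2 fold change of -0.60 ± 0.06. ZFAND1 (-0.59 ± 0.08) was placed on this list for its zinc finger, but is known for bringing the proteasome to stress granules and not as a regulator of transcription. Without it, a change made after seeing the data, 4 of 9 members were called lower, 2 higher and 3 not, at a median of -0.27. Signalling and adhesion genes had 6 members, with 3 called lower, 1 higher and 2 not, at a median of -0.60. FZD6, a Frizzled receptor gene of WNT and polarity signalling, was at 86.1, 90.9 and 95.3 CPM against 62.8, 64.2 and 66.5 CPM (log2 -0.50 ± 0.05). The neuronal and channel list had 2 members, both called lower. JPH1, a junctophilin gene, had a log2 fold change of -0.57 ± 0.06.

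**Figure D3:**
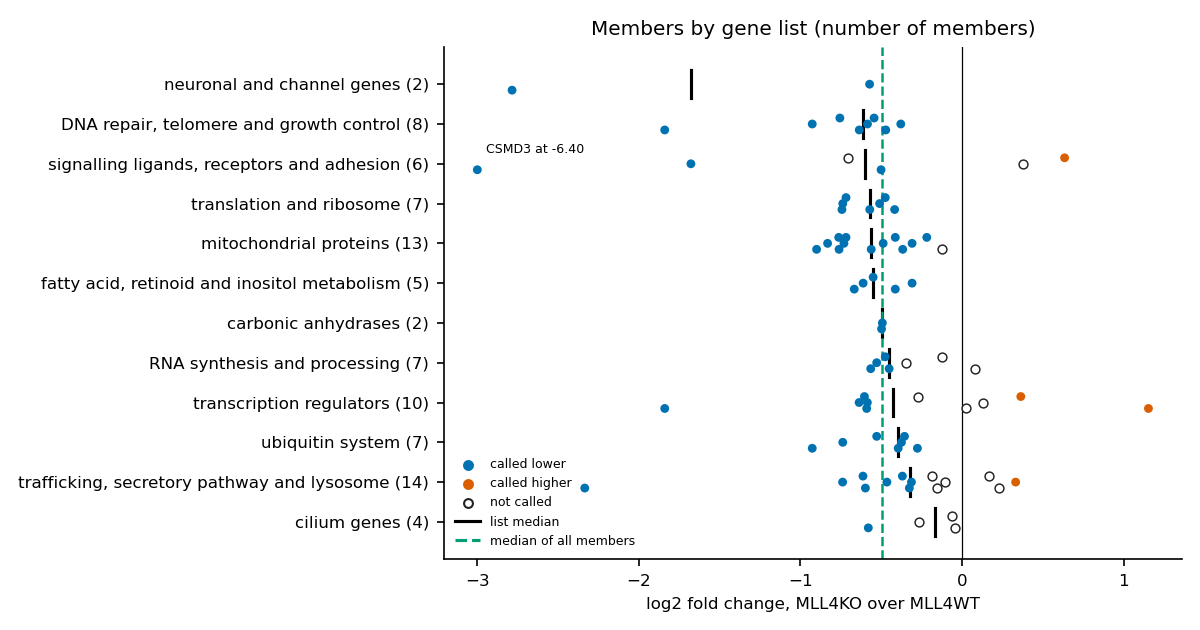
Log2 fold change (MLL4KO over MLL4WT) of each member of the 12 gene lists, with the number of members in brackets, a black bar at each list median and the dashed line at the median of all members. Translation, ubiquitin and repair members are all called lower. The transcription, RNA synthesis, trafficking and signalling lists hold members on both sides of 0. Of their members above 0, only ZFHX4, ZNF704 and RBM12B were at 10 CPM or more in MLL4WT. CSMD3 (-6.40) is drawn at the left edge.

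Some well-measured members lay close to their MLL4WT level, at the upper edge of the band. CPNE3, a copine gene of calcium-dependent membrane binding, was at 151, 149 and 149 CPM in MLL4WT against 141, 140 and 147 CPM in MLL4KO (log2 -0.07 ± 0.04). Every MLL4KO library was below every MLL4WT library, but by little, and the gene was not called. RMDN1, next to it, was called lower (log2 -0.73 ± 0.05). CIBAR1, RBM12B and TMEM67, which lie within 120 kb with RBM12B-AS1 among them, were also near their MLL4WT level. CIBAR1, a ciliary membrane-binding gene, was at 84.7, 91.7 and 88.9 CPM against 82.3, 86.5 and 90.2 CPM (log2 -0.04 ± 0.05). RBM12B was at 71.1 ± 3.48 and 75.5 ± 4.98 CPM, and TMEM67, a gene of the ciliary transition zone, at 27.5 ± 3.29 and 26.7 ± 0.760 CPM (log2 -0.06 ± 0.08). In each of these 3 genes the groups overlapped. Their neighbours on either side were lower: TRIQK, 680 kb before CIBAR1, had a log2 fold change of -0.40 ± 0.09, and PDP1, 38 kb after TMEM67, of -0.56. CIBAR1 and RBM12B overlap on opposite strands, and the library kit is not said to keep strand, so reads of their shared part cannot be assigned. At 10 CPM or more, 14 members were not called, with log2 values from -0.75 (RPS26P6) to 0.08 (RBM12B).

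A member was taken to depart from the shift when it lay at least 1.5-fold from the median, had at least 1 CPM in the higher genotype, and showed no overlap between genotypes once the median was taken off the MLL4KO values. By this rule 6 of the 116 members departed below and 11 of the 116 above. Around the median of all tested genes, the same rule held for 5.48% of all tested genes below and 7.07% above. The member counts are not far from these shares and are not read as a trait of the stretch. Departing members were mostly low: 12 of the 17 were under 10 CPM in MLL4WT, where 30 of 116 members were. Without MLL4WT replicate 1 the counts were again 6 and 11.

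CSMD3 departed furthest. This gene of a large membrane protein with CUB and sushi domains (chromosome 8, 112222928 to 113437099) was at 13.7, 16.0 and 16.3 CPM in MLL4WT against 0.199, 0.123 and 0.199 CPM in MLL4KO, from 92, 233 and 284 counts against 4, 2 and 3. Its log2 fold change was -6.40 ± 0.22. NCALD, which encodes the neuronal calcium sensor neurocalcin delta (101686543 to 102124907), was low throughout, at 1.93, 1.99 and 2.58 CPM in MLL4WT against 0.248, 0.308 and 0.398 CPM in MLL4KO (5, 5 and 6 counts), a level 14.7% of that in MLL4WT (log2 -2.79 ± 0.35).

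CHMP4C, an ESCRT-III gene of membrane scission and the abscission checkpoint (81732434 to 81759515), was at 11.9, 15.1 and 10.9 CPM in MLL4WT against 3.13, 2.40 and 1.86 CPM in MLL4KO (log2 -2.34 ± 0.19, 3.58-fold beyond the shift). The size of its difference varied with the libraries compared, from -1.77 for MLL4WT replicate 3 against MLL4KO replicate 1 to -2.77 between libraries of the other shared run code. E2F5, a gene of the repressive E2F factors of the cell cycle (85177225 to 85217158), was at 14.8, 13.2 and 14.1 CPM against 4.02, 3.32 and 4.32 CPM (log2 -1.84 ± 0.13, 2.54-fold beyond the shift). It overlaps RBIS, a ribosome biogenesis gene on the other strand, which had a log2 fold change of -0.62 ± 0.08.

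IL7, the lymphocyte cytokine gene interleukin 7 (78675743 to 78805523), was at 4.01, 3.49 and 3.33 CPM against 1.14, 1.05 and 1.13 CPM (log2 -1.68 ± 0.23). It overlaps ZC2HC1A on the other strand, which was not called (log2 -0.23 ± 0.10). GASAL1, a long noncoding RNA (102805517 to 102809971), was at 2.82, 3.01 and 2.29 CPM against 0.993, 1.05 and 0.929 CPM (log2 -1.43 ± 0.26). In all 6 genes that departed below, every MLL4KO library was also under every MLL4WT library before the shift was taken off. The rule itself requires this, since taking the shift off raises the MLL4KO values.

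**Figure D4:**
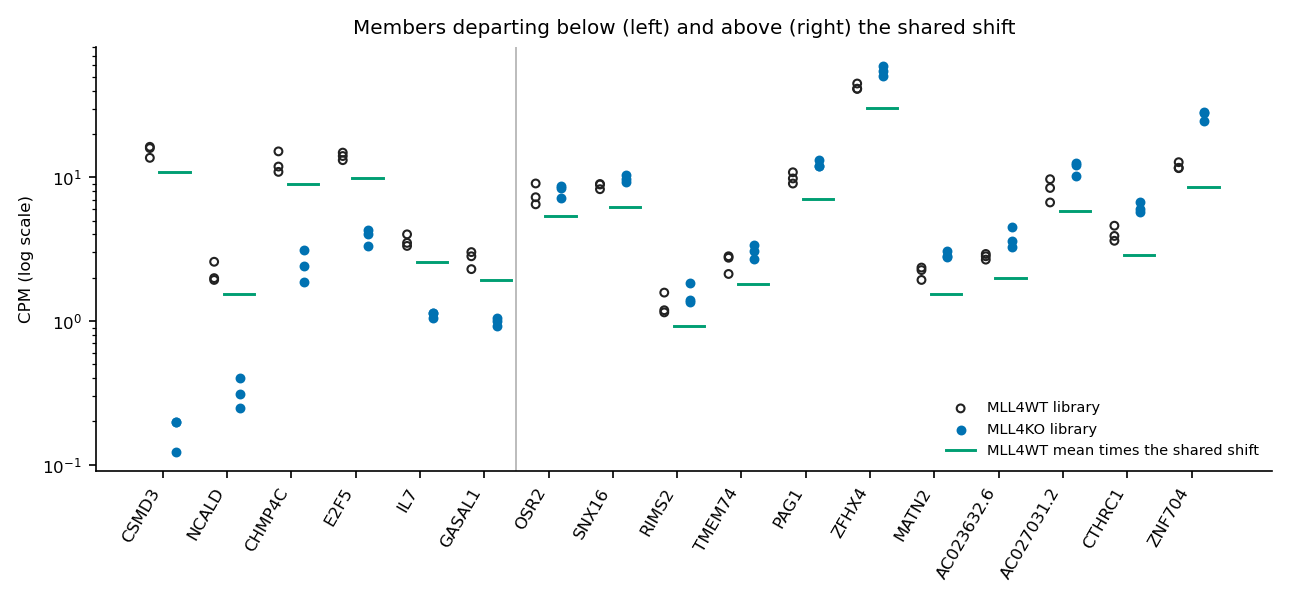
CPM on a log scale in each library for the 6 members departing below (left of the line) and the 11 departing above (right), with a green bar at the MLL4WT mean lowered by the shared shift. MLL4KO points lie below the bar on the left and above it on the right, and for OSR2, RIMS2 and TMEM74 they overlap the MLL4WT points.

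ZNF704 departed furthest upward and was the only member at 10 CPM or more that was over 2-fold higher. This zinc finger gene (chromosome 8, 80628451 to 80874781) was at 11.6, 11.6 and 12.7 CPM in MLL4WT against 24.7, 28.3 and 27.8 CPM in MLL4KO (log2 1.15 ± 0.09, 3.14-fold above the shift). PAG1, the next member along, encodes a membrane adaptor that recruits the kinase CSK. It was at 10.8, 9.04 and 9.81 CPM against 11.9, 11.9 and 13.1 CPM (log2 0.33 ± 0.11), a call lost without any 1 of 5 libraries, MLL4WT replicate 1 being the exception, and with the DESeq2 Wald test. ZFHX4, a large homeobox and zinc finger factor gene (76681219 to 76867285), was at 41.3, 41.3 and 44.9 CPM against 50.9, 55.0 and 59.2 CPM (log2 0.36 ± 0.07). In these 3 genes every MLL4KO library lay above every MLL4WT library.

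CTHRC1, which encodes a secreted collagen triple helix repeat protein (103371515 to 103382997), was at 4.60, 3.90 and 3.61 CPM in MLL4WT against 5.71, 6.03 and 6.71 CPM in MLL4KO (log2 0.64 ± 0.16). It lies between FZD6, which carried the median shift, and SLC25A32, which was lower still. The noncoding RNA AC027031.2 (106270144 to 106272899) was at 6.68, 8.43 and 9.69 CPM against 10.3, 12.6 and 12.2 CPM (log2 0.45 ± 0.14, or 0.36 without MLL4WT replicate 1). Its call was lost with the DESeq2 Wald test and when MLL4WT replicate 2 or either of MLL4KO replicates 2 and 3 was left out. Between libraries of the same run code its log2 difference was 0.55 for MLL4WT replicate 2 against MLL4KO replicates 2 and 3. For MLL4WT replicate 3 against MLL4KO replicate 1 it was only 0.08. ZNF704, PAG1, ZFHX4, CTHRC1 and AC027031.2 are the 5 members called higher.

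The other 6 departed from the shift while their level in MLL4KO was not called different from MLL4WT. SNX16, a sorting nexin gene, was at 8.90, 8.97 and 8.26 CPM against 9.24, 9.66 and 10.4 CPM (log2 0.17 ± 0.11). OSR2, a zinc finger factor gene of development, was at 9.05, 7.26 and 6.48 CPM against 7.20, 8.68 and 8.36 CPM (log2 0.13 ± 0.15, or 0.24 without MLL4WT replicate 1). MATN2 (matrilin 2 of the extracellular matrix), AC023632.6, TMEM74 and RIMS2 (a synaptic vesicle release gene) lay under 4 CPM on average in both genotypes, with log2 values from 0.23 ± 0.29 for RIMS2 to 0.43 ± 0.20 for AC023632.6. MATN2 overlaps the abundant RPL30 on the other strand. AC023632.6 lies inside RAD54B on the same strand, where reads of both cannot be told apart. RIMS2 changed sign between shared run codes, with -0.19 for MLL4WT replicate 2 against MLL4KO replicates 2 and 3 and 0.64 for MLL4WT replicate 3 against MLL4KO replicate 1. Another 3 members lay outside the band without meeting the rule, ENSG00000258677 (log2 -1.25 ± 0.86, or -1.49 without MLL4WT replicate 1) and FTH1P11 (-1.09 ± 0.60) below and RBM12B-AS1 (0.16 ± 0.33) above.

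Members that start next to each other on opposite strands need not move alike. The stretch held 15 such divergent pairs with starts within 1 kb, of which 10 had both genes at 10 CPM or more. In those 10 the log2 fold changes differed by a median of 0.28, beside 0.21 between the 85 pairs of neighbouring members at that level. The 85 hold divergent pairs as well, so the sets are not separate, and the difference between them was not tested. ZFAND1 and CHMP4C, whose first bases overlap, were furthest apart, at -0.59 and -2.34. RMDN1 and CPNE3, whose starts lie 70 bases apart, were at -0.73 and -0.07. SLC25A32 and DCAF13 were both below the median, at -0.90 and -0.74, and RBIS and CA13 lay 0.13 apart. Of all members, 52 overlap a counted gene on the opposite strand.

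**Figure D5:**
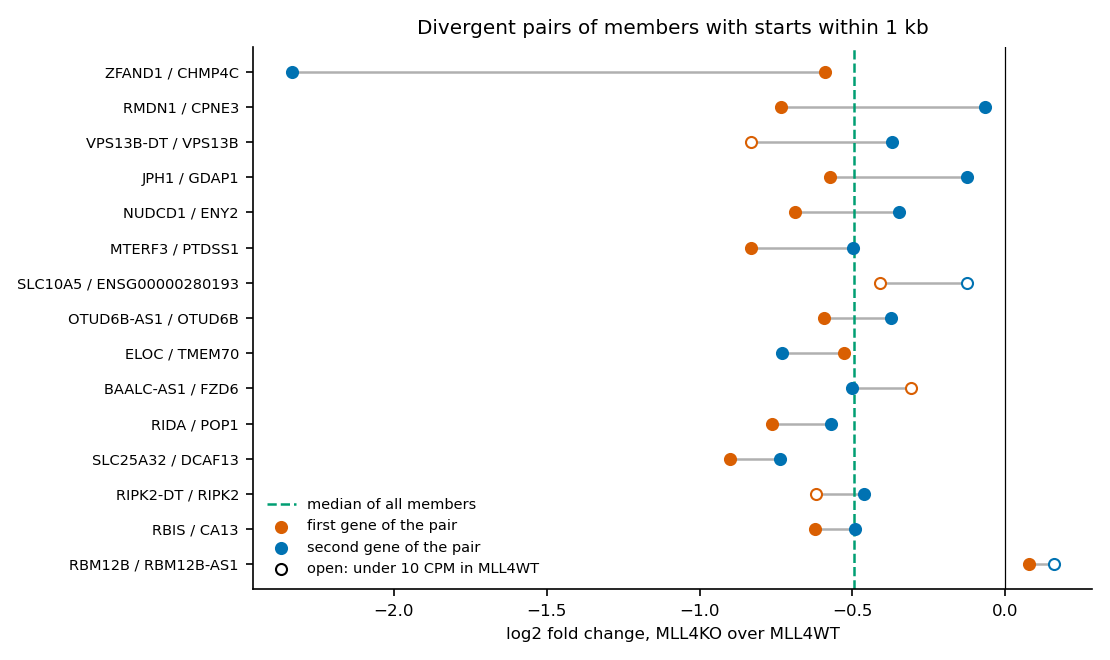
Log2 fold change (MLL4KO over MLL4WT) of both genes in each of the 15 divergent pairs with starts within 1 kb, joined by a line, with the dashed line at the median of all members. Differences run from 0.08 for RBM12B and its antisense RNA to 1.75 for ZFAND1 and CHMP4C.

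The 17 noncoding and pseudogene members had a median log2 fold change of -0.62, with 14 below 0. Of them 4 (23.5%) were called lower, near the 21.6% of all tested genes, 1 was called higher and 12 were not called, and 14 lay under 10 CPM in MLL4WT. OTUD6B-AS1, which starts 7 bases from the deubiquitinase gene OTUD6B on the other strand without overlapping it, was at 21.2, 26.7 and 23.4 CPM in MLL4WT against 15.8, 16.3 and 15.7 CPM in MLL4KO (log2 -0.59 ± 0.09), while OTUD6B itself had -0.38 ± 0.08. ZFPM2-AS1, a long noncoding RNA, had -0.69 ± 0.14. The processed pseudogenes RPS26P6 and FTH1P11, copies of genes on other chromosomes, were set apart by MLL4WT replicate 1. RPS26P6 was at 25.2 CPM there and between 6.09 and 9.29 CPM in the other 5 libraries, and FTH1P11 at 3.12 CPM there and between 0.398 and 0.753 CPM elsewhere. Without that library their log2 fold changes went from -0.75 to -0.09 and from -1.09 to -0.24.

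MLL4WT replicate 1 also stood lower than the other MLL4WT libraries in several members. Over the 86 members at 10 CPM or more its log2 ratio to the mean of MLL4WT replicates 2 and 3 had a median of -0.08, beside -0.01 in the other genes at that level, and a range from -0.55 (UQCRB) to 1.72 (RPS26P6). After UQCRB the lowest were ENY2 (-0.53), FABP5 (-0.49) and RIDA (-0.46). Without this library 81 members were called lower and 5 higher, where 25.7% and 23.7% of all tested genes were.

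The number called moved with the library left out, and so did the share of all tested genes. Without MLL4WT replicate 2, 72 members were called lower and 3 higher (17.5% and 16.1% of all tested genes), and without MLL4WT replicate 3, 71 and 4 (17.9% and 16.5%). Without MLL4KO replicate 1 the counts were 70 and 4 (16.3% and 15.4%), without replicate 2 they were 72 and 3 (15.7% and 14.6%), and without replicate 3 they were 72 and 3 (16.3% and 15.1%). With the replicate number as a block 75 and 5 were called (20.8% and 18.5%), and with the run code as a term 83 and 5 (27.4% and 23.9%). The DESeq2 Wald test called 3 members higher, ZNF704, CTHRC1 and ZFHX4 (13.4% of all genes it tested).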

How the data were processed

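The deposited table holds expected counts per gene, as whole numbers that are not normalised; the file name calls them raw, and their totals differ between libraries. The submitters' processing notes name Salmon 1.8.0, DESeq2 1.44.0 and hg38 with no role or order, and the release of the annotation behind the counts was not stated. Coordinates, gene types and merged exon lengths came from GENCODE release 29 (GRCh38), which held 56227 of 59715 rows. A separate table of names gave symbols for 114 of the 116 members. All 6 columns were used.

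The filter was filterByExpr in edgeR 4.0.16 under R 4.3.3 (14543 genes, all 116 members among them), and libraries were scaled by TMM. The contrast of MLL4KO with MLL4WT used the quasi-likelihood test of edgeR (robust, no covariate), with Benjamini-Hochberg adjustment over all tested genes and calls at an adjusted p under 0.05. The biological coefficient of variation was 5.62%. Standard errors came from the F statistic. Ratios per library used a pseudocount of 0.1 CPM. The test was tried on simulated counts. MLL4WT replicate 1, the shallowest library, holds 3 counts at 0.439 CPM before scaling, and differences near that level were not detectable there. Errors of CPM are SD over n = 3 libraries and those of log2 fold changes are SE.

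The members and gene lists were chosen with earlier results of these data known. Named genes are the 12 most abundant members within the band, departing members, the 4 most abundant and any departing members of each list, and those at the ends and the count limit. CPNE3, RMDN1, RBM12B, TRIQK, STAU2, GDAP1, RAD54B, STK3, RBIS, ZC2HC1A, RIDA, OTUD6B, OTUD6B-AS1, ZFPM2-AS1, RPS26P6, RBM12B-AS1 and ENSG00000258677 were named after their values were seen. Alternatives were other scalings, filters and tests, the replicate number as a block, leaving out each library and, added later, run codes. No sequences are shown. A list member that the rule names is not reported here.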

Additional observations from a re-analysis of the deposited data

How the results depend on the processing

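The shared shift kept its sign under each alternative run. It was -0.43 with total counts alone and -0.44 with upper quartile factors, where the median of all tested genes stood at 0.06 and 0.05, and between -0.52 (ratio of summed CPM) and -0.48 under the others that kept all libraries. Leaving out 1 library gave -0.49 to -0.47 for the shift, 70 to 81 members called lower and 3 to 5 called higher, 6 to 8 departing below and 10 to 12 above. The count called higher was 3 with the DESeq2 1.42.0 Wald test and 3 when MLL4WT replicate 2 or either of MLL4KO replicates 2 and 3 was left out, as AC027031.2 and PAG1 were no longer called. With at least 5 CPM asked for, 3 members departed below and 7 above, since fewer genes could enter. With a departure of at least 2-fold, 5 departed below and 2 above. The replicate block gave a shift of -0.49 with 75 members lower and 5 higher. Same-numbered libraries did not deviate together (correlations 0.02, 0.03 and -0.001), so the numbers were not taken as pairs. No value of a named member that was called changed sign. Depth limits the 30 members under 10 CPM, and the shallowest library limits those most.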

Other observations

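Inside the stretch, 116 rows had between 1 and 59 counts and were left out of the members. Their summed level was 17.5, 15.6 and 15.6 CPM in MLL4WT replicates 1 to 3 and 13.3, 9.05 and 9.29 CPM in MLL4KO replicates 1 to 3, so that every MLL4KO library lay below every MLL4WT library. Another 377 rows had no count in any library.

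Across the 86 members at 10 CPM or more, which share their libraries and are not independent replicates, the log2 fold change had a Spearman correlation of -0.07 with the MLL4WT level, 0.20 with merged exon length and -0.22 with distance along the stretch. In the other genes at that level the first 2 of these were -0.14 (n = 9813) and 0.26 (n = 9789).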
